A study of Sus scrofa with 12 samples.

Results

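The genes described here write, copy, erase and read DNA methylation, and they were followed in RNA-seq of the pig jejunum around weaning. The set held 8 genes, DNMT1, DNMT3A, DNMT3B, TET1, TET2, TET3, UHRF1 and MBD2. They were found by gene name in a table of 41264 loci, in which 17049 different gene names occur. Of the 8 genes, 7 had a row under their name, each at 1 locus. TET1 had no row under its name. The row with the pig Ensembl identifier that belongs to TET1 in the gene names table was listed at 0 in 11 of 12 libraries and at 0.061 FPKM in PW_Con 3, so that no comparison was made for it.

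The 12 libraries came from jejunum of 12 piglets in 4 groups of 3. W_Con were piglets of 21 days of age on the day of weaning, and PW_Con were piglets of 28 days of age in the week after weaning, both from sows on a corn and soybean meal diet. W_Res and PW_Res were piglets of the same ages from sows that received 300 mg/kg resveratrol, a plant polyphenol, in that diet through gestation and lactation. The labels name Landrace boars as the semen source and litters cross-fostered within a diet, with piglets kept in their pens after the sow was removed, while the study's methods describe Yorkshire × Duroc litters moved to a nursing room, with 1 male piglet taken from each litter at each age. By those methods both ages drew on the same litters, and the labels do not tie single libraries to a litter. Age and weaning moved together in this design and cannot be told apart. Values are FPKM, fragments per kilobase of transcript scaled to the mapped fragments of a library, which take account of transcript length and can be compared between genes. The fragments behind each value are not in the table, so that the depth per gene is unknown.

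In mammals, DNMT3A and DNMT3B add methyl groups to unmethylated CpG sites, and DNMT1 copies the pattern to the new strand after DNA replication. UHRF1 recognises hemimethylated sites and brings DNMT1 to them, which ties both proteins to dividing cells. The TET enzymes oxidise methylcytosine as the first step of its removal, and MBD2 binds methylated CpG sites and recruits the NuRD repressor complex. In the gut, division is restricted to the crypts, and the villi carry the differentiated cells.

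Some libraries stood apart before any comparison. The median FPKM over all loci was 1.12 in W_Res 2 and 0.836 in W_Res 3, against 0.238 to 0.479 in the other 10 libraries. The summed level of 6 smooth muscle markers was 656 to 3905 FPKM in W_Res, against 150 to 631 FPKM in W_Con, 406 to 556 FPKM in PW_Con and 195 to 634 FPKM in PW_Res. The summed level of 5 epithelial markers was 2981 to 3040 FPKM in W_Con, 3219 to 3928 FPKM in PW_Con, 1613 to 2656 FPKM in W_Res and 3375 to 5127 FPKM in PW_Res, and the rows of CDH1 and KRT18 were missing from that list. It was higher after weaning than on the day of weaning in both diets, and lower in W_Res than in W_Con, each time without overlap. All 5 markers had a positive weaning effect in the average over both diets, where 36.6% of all genes were higher, and 1 had an unadjusted P under 0.05, against 19.0% of all genes. This was the keratin KRT8 with 1.04 (unadjusted P = 0.000505, adjusted p = 0.0629, limma), and 0.79 without W_Res 2 and W_Res 3. In control litters 2 of the 5 were higher and 3 lower. The part of the epithelium in the weaning effects on the 8 genes was not tested. The 4 markers of the distal small intestine summed to 61.8 to 8285 FPKM in W_Con, 6710 to 9921 FPKM in PW_Con, 52.0 to 6399 FPKM in W_Res and 95.9 to 24552 FPKM in PW_Res, with the highest level of each resveratrol group in W_Res 3 and PW_Res 1. Of 4 blood markers 2 had a row. They summed to 30.9 to 74.3 FPKM in W_Con and 0.662 to 48.2 FPKM in PW_Con, with overlap. In resveratrol litters the sums were 79.7 to 131 FPKM in W_Res and 6.77 to 15.3 FPKM in PW_Res, without overlap. Both had an unadjusted P under 0.05 for the average weaning effect, against 19.0% of all genes. HBB had -2.74 (adjusted p = 0.0803) and ALAS2 had -0.73 (adjusted p = 0.0790), both by limma. In bulk tissue, fewer cells of a type and less RNA per cell cannot be told apart, and the main comparisons that use W_Res are also given without W_Res 2 and W_Res 3. The group then holds 1 library, so that these values are given without a P-value, and counts over alternatives that include this fit assume that W_Res 1 varies like the other groups.

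The genes differed more in level than any of them did between groups. UHRF1 was the most abundant with 38.4 ± 12.1 FPKM (SD, n = 12), a level above that of 90.6% of the 12886 genes tested over all libraries. MBD2 followed with 27.8 ± 4.98 FPKM and DNMT1 with 23.1 ± 5.48 FPKM. TET3 was intermediate with 7.64 ± 4.05 FPKM, and DNMT3B reached 1.79 ± 0.497 FPKM. TET2 with 1.04 ± 0.796 FPKM and DNMT3A with 0.743 ± 0.291 FPKM were the lowest, and DNMT3A lay above only 5.76% of the genes. DNMT1 exceeded TET3 in 12 of 12 libraries. Other neighbours in this order changed places in some libraries. UHRF1 exceeded MBD2 and MBD2 exceeded DNMT1 in 9 of 12 libraries each, TET3 exceeded DNMT3B and DNMT3B exceeded TET2 in 10 each, and TET2 exceeded DNMT3A in 7. The locus named DNMT3A consisted of 3 assembled transcripts without an Ensembl transcript, whereas the TET2 locus had 1 transcript, and how far these models cover the genes was not tested.

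**Figure D1:**
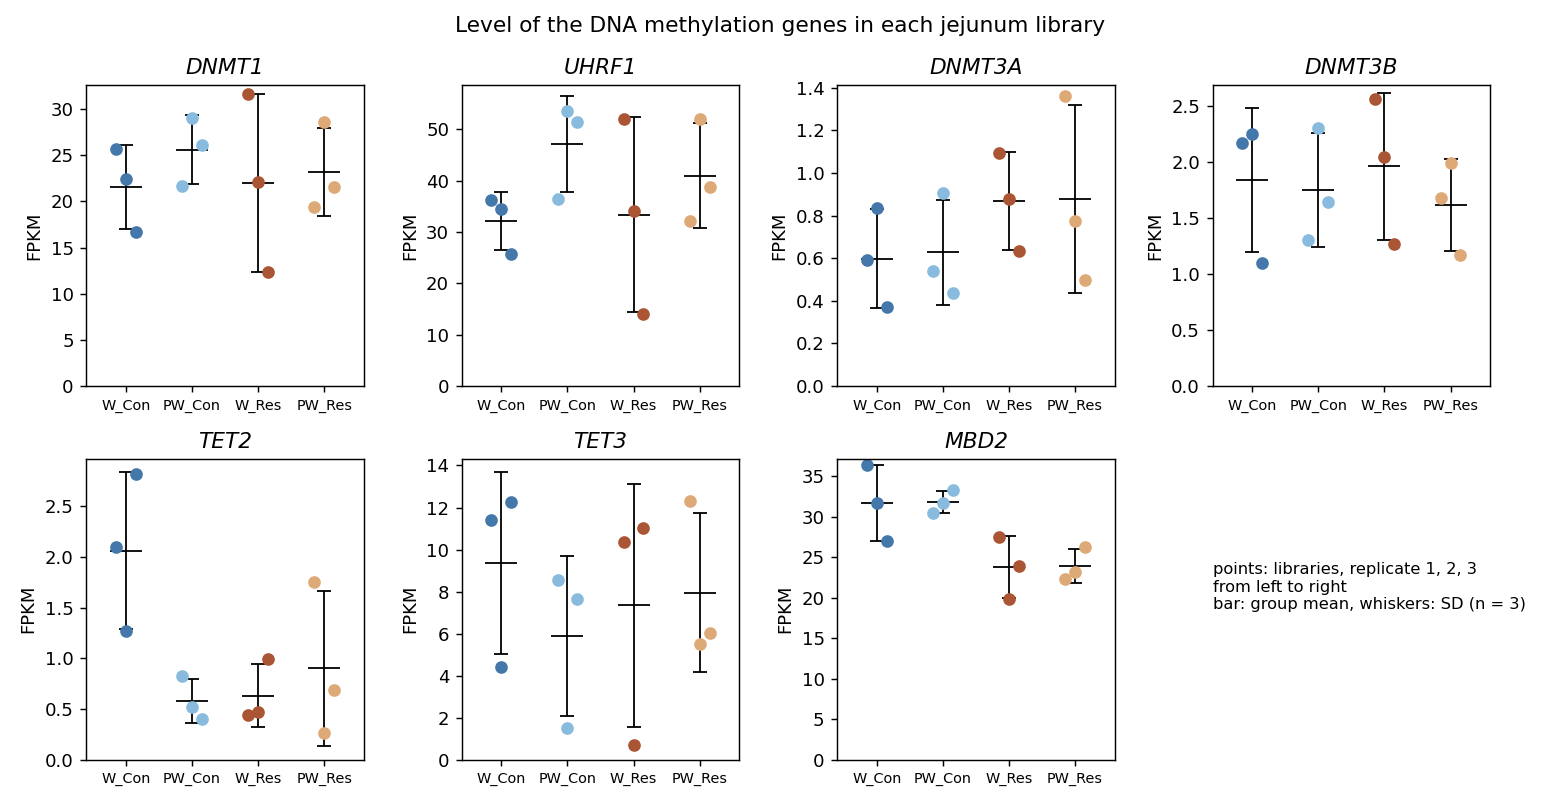
FPKM (vertical axes, linear, from 0) of the 7 genes with a row in each of the 4 groups; points are libraries, bars are group means and whiskers are SD (n = 3). TET2 is higher in the 3 W_Con libraries than in those of PW_Con and W_Res, the mean of MBD2 is lower in the resveratrol groups, and UHRF1 and DNMT1 spread most in W_Res.

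The spread between replicates also differed. MBD2 varied least, with a within-group SD of 0.17 on the log2(FPKM + 1) scale, which is larger than that of only 7.11% of the genes tested, and its highest library was 1.83-fold above its lowest. TET3 varied most, with a within-group SD of 1.07, larger than that of 97.8% of the genes, and a 17.8-fold range. TET2 ranged 10.6-fold, UHRF1 3.84-fold, DNMT3A 3.68-fold, DNMT1 2.56-fold and DNMT3B 2.33-fold.

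The comparisons used limma on log2(FPKM + 1), with Benjamini-Hochberg adjustment over every gene whose mean FPKM over the compared libraries reached 0.5. The study's own standard is an unadjusted P under 0.05 with a log2 fold change beyond 1. In each comparison 0 of the 7 genes had an adjusted p under 0.05. The shares of all genes tested that passed the unadjusted P are the background against which a count is read. Each group enters 2 of the 4 comparisons between groups, so that these are not independent of each other. On the log2(FPKM + 1) scale the change of genes at about 1 FPKM, such as TET2, is understated.

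The weaning effect in control litters was the comparison of the study itself, PW_Con against W_Con. Of the 7 genes, UHRF1 was higher and TET2 lower at an unadjusted P under 0.05, against 17.7% of the 12611 genes tested. The same 2 genes had groups that did not overlap, against 25.3% of all genes. On the log2(FPKM + 1) scale none of the 7 genes was beyond both limits of the study's standard, against 3.31% of all genes, and 0% of all genes had an adjusted p under 0.05. The median log2 fold change of the 7 genes was 0.02, beside -0.02 over all genes.

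Among the genes that maintain methylation, UHRF1 was at 36.2, 34.4 and 25.7 FPKM in W_Con and at 36.5, 53.7 and 51.4 FPKM in PW_Con. The lowest weaned library lay just above the highest library from the day of weaning. The log2 fold change was 0.54 (SE 0.22, unadjusted P = 0.0409, adjusted p = 0.262, limma). Without PW_Con 2, PW_Con 3, W_Con 2 or W_Con 3 in turn, the unadjusted P of UHRF1 was above 0.05, and the log2 fold change ranged from 0.39 to 0.71 over the 6 libraries left out.

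DNMT1, the maintenance methyltransferase, was at 25.6, 22.4 and 16.7 FPKM in W_Con and at 21.7, 29.1 and 26.1 FPKM in PW_Con. These groups overlapped, with a log2 fold change of 0.25 and a 95% interval from -0.24 to 0.73. In resveratrol litters, DNMT1 was at 31.6, 22.1 and 12.3 FPKM in W_Res and at 19.4, 28.6 and 21.6 FPKM in PW_Res. Both ends of the range of DNMT1 over all libraries lay in W_Res, and the 95% interval of the log2 fold change ran from -0.66 to 0.95.

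UHRF1 in resveratrol litters was at 52.0, 34.1 and 14.0 FPKM in W_Res and at 32.1, 52.1 and 38.7 FPKM in PW_Res. The groups overlapped over most of their range. The log2 fold change of 0.44 was close to that in control litters, but its SE was 0.45 (unadjusted P = 0.359, limma), and without W_Res 3 it was -0.07. Without W_Res 2 and W_Res 3 it was -0.36, and that of DNMT1 was -0.45 in place of 0.15. The difference of the weaning effect on UHRF1 between the diets was -0.09 (95% interval -1.29 to 1.10). This difference was -0.60 without W_Res 3, and -0.90 without W_Res 2 and W_Res 3. Averaged over both diets, the log2 fold change of UHRF1 was 0.49 (unadjusted P = 0.0996, limma), and an exact permutation test of the libraries within each diet gave p = 0.125, where 0.005 was the smallest p possible. Without W_Res 2 and W_Res 3 together, the average was 0.09.

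UHRF1 and DNMT1 followed each other over the libraries. Pearson's r was 0.96 and Spearman's rho 0.87 over the 12 libraries, and r was 0.98 after each group's mean was removed. W_Res 3 was lowest in both genes. The ratio of UHRF1 to DNMT1, which does not depend on the scaling of a library, was 1.41, 1.53 and 1.54 in W_Con and 1.13, 1.54 and 1.64 in W_Res. After weaning it was 1.68, 1.85 and 1.97 in PW_Con and 1.65, 1.80 and 1.82 in PW_Res. All 6 ratios after weaning were above all 6 ratios at weaning, although W_Res 1 and PW_Res 1 were almost equal. The ratio was chosen after the values were seen and is given without a test.

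**Figure D2:**
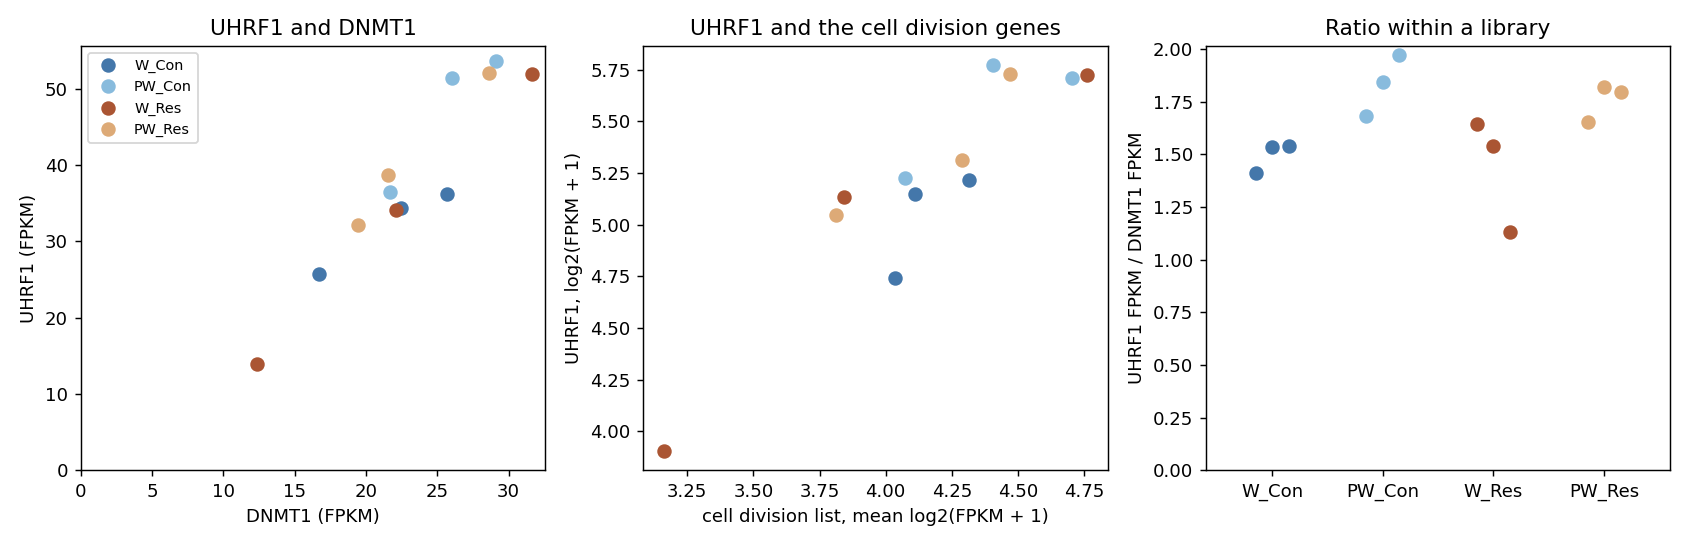
UHRF1 against DNMT1 in FPKM (left), UHRF1 against the mean log2(FPKM + 1) of 11 cell division genes (middle, axes not from 0) and the ratio of UHRF1 to DNMT1 in each library by group (right); points are libraries. UHRF1 follows both DNMT1 (r = 0.96) and the cell division genes (r = 0.92), and the ratio is 1.13 to 1.64 at weaning and 1.65 to 1.97 after weaning.

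The genes most alike to UHRF1 over the 12 libraries were KIF22, MCM4 and MCM2, each with r = 0.98. KIF22 is a chromosome-binding kinesin, and the MCM proteins form the replicative helicase. Those most alike to DNMT1 were MCM4, UHRF1 and the spindle protein SPAG5, with r = 0.96 each. The mean log2 level of the 11 cell division genes that had a row, of 20 listed, had r = 0.92 with UHRF1 and r = 0.90 with DNMT1. All these points share their library, its depth and its tissue makeup.

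In control litters 9 of the 11 cell division genes were higher after weaning, against 48.2% of all genes, and 3 of them had an unadjusted P under 0.05, against 17.7% of all genes. Their median log2 fold change was 0.29, beside -0.02 over all genes. In resveratrol litters 10 of 11 were higher, against 34.1% of all genes, and 1 had an unadjusted P under 0.05, against 13.3% of all genes. In the average over both diets 9 of 11 were higher, against 36.6% of all genes, but 2 of 11 without W_Res 2 and W_Res 3. CDC20, an activator of the anaphase-promoting complex, was at 22.2 ± 3.07 FPKM in W_Con and 39.1 ± 9.17 FPKM in PW_Con, and at 19.5 ± 10.5 FPKM in W_Res and 37.9 ± 7.49 FPKM in PW_Res (SD, n = 3). Its average log2 fold change over both diets was 0.90 (SE 0.23, unadjusted P = 0.00231, adjusted p = 0.107, limma), and 0.52 without W_Res 2 and W_Res 3. MCM2 with 0.47 and MCM4 with 0.33 had an unadjusted P above 0.05, and without these libraries they had 0.08 and -0.05. The summed level of the 11 genes was lowest in W_Res 3 at 107 FPKM and highest in W_Res 1 at 356 FPKM, and UHRF1 was at 14.0 and 52.0 FPKM in these libraries. The part of dividing cells in the level of UHRF1 was not tested.

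UHRF2, the paralogue of UHRF1, was lower after weaning. It was at 7.86, 5.26 and 6.31 FPKM in W_Con and at 4.59, 3.91 and 5.04 FPKM in PW_Con. In resveratrol litters it was at 6.69, 6.01 and 5.49 FPKM in W_Res and at 4.02, 2.64 and 2.90 FPKM in PW_Res. All 6 levels after weaning were below all 6 levels at weaning. The average log2 fold change was -0.60 (SE 0.14, unadjusted P = 0.00104, adjusted p = 0.0790, limma), with -0.43 in control and -0.76 in resveratrol litters. The average was -0.66 without W_Res 2 and W_Res 3.

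UHRF2 belonged to a list of 9 partners and other maintenance factors, of which 7 had a row. In the average over both diets 3 were higher and 4 lower, where 36.6% of all genes were higher. UHRF2 and USP7 were lower at an unadjusted P under 0.05, which is 2 of 7 against 19.0% of all genes. USP7, a deubiquitinase that binds DNMT1 and UHRF1, was at 25.6 ± 3.45 FPKM in W_Con and 18.3 ± 0.782 FPKM in PW_Con, and its average log2 fold change was -0.33 (unadjusted P = 0.0162, adjusted p = 0.187, limma) and -0.38 without W_Res 2 and W_Res 3. In resveratrol litters USP7 was at 22.7 ± 1.58 FPKM in W_Res and 19.7 ± 3.05 FPKM in PW_Res, with overlap, and its log2 fold change was -0.20 (unadjusted P = 0.344), beside -0.46 in control litters (unadjusted P = 0.0230). PCNA, the sliding clamp of the replication fork, had 0.24 (unadjusted P = 0.403).

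The de novo methyltransferases were low in all groups. DNMT3A was at 0.589, 0.833 and 0.371 FPKM in W_Con, 0.539, 0.905 and 0.437 FPKM in PW_Con, 1.09, 0.879 and 0.633 FPKM in W_Res, and 1.36, 0.775 and 0.495 FPKM in PW_Res. The ranges of all 4 groups overlapped. The log2 fold change with weaning was 0.03 (95% interval -0.48 to 0.53) in control and -0.01 (-0.64 to 0.62) in resveratrol litters, where it was -0.18 without W_Res 2 and W_Res 3. Resveratrol against control gave 0.23 at weaning and 0.19 after weaning, and the average of both was 0.21 (95% interval -0.14 to 0.56).

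DNMT3B was at 2.16, 2.25 and 1.10 FPKM in W_Con and at 1.30, 2.30 and 1.64 FPKM in PW_Con. In resveratrol litters it was at 2.56, 2.04 and 1.27 FPKM in W_Res and at 1.68, 1.99 and 1.17 FPKM in PW_Res. Again the ranges overlapped, with a log2 fold change with weaning of -0.03 (95% interval -0.62 to 0.56) in control and -0.17 (-0.78 to 0.45) in resveratrol litters, where it was -0.46 without W_Res 2 and W_Res 3. Over the 12 libraries DNMT3B had r = 0.73 with DNMT1, r = 0.63 with DNMT3A, r = 0.67 with the smooth muscle markers and r = 0.70 with the markers of enteric neurons and glia. DNMT3L, a catalytically inactive cofactor of the de novo enzymes, had a mean of 2.45 FPKM, and its average weaning effect was -0.11 (unadjusted P = 0.677), or 0.26 without W_Res 2 and W_Res 3.

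The genes most alike to DNMT3A were CLIC6 and MUL1 (r = 0.88 each) and F2RL1 (r = 0.85). Those most alike to DNMT3B were SYCE2 (r = 0.88), ANKS3 (r = 0.87) and HERC3 (r = 0.86).

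Among the erasers, TET2 had the largest single log2 fold change of the 7 genes in the 4 comparisons between groups, in control litters, although in resveratrol litters and after weaning with resveratrol TET3 had the largest. In control litters TET2 was at 2.10, 1.27 and 2.82 FPKM in W_Con and at 0.822, 0.515 and 0.404 FPKM in PW_Con. All 3 weaned libraries were below all 3 libraries from the day of weaning. The log2 fold change was -0.93 (SE 0.25, unadjusted P = 0.00673, adjusted p = 0.153, limma). TET2 is among the genes that the study itself named from these 6 libraries, so that this is not independent evidence of its direction. With a pseudocount of 0.1 in place of 1, the log2 fold change was -1.65, with an unadjusted P of 0.00643, which is beyond both limits of the study's standard, so that this count depends on the scale. TET2 kept an unadjusted P under 0.05 in all 15 alternatives in which it was tested, with the libraries left out in turn giving -1.13 to -0.76, and the adjusted p ranged from 0.144 to 0.327.

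In resveratrol litters TET2 was at 0.436, 0.469 and 0.992 FPKM in W_Res and at 1.75, 0.267 and 0.684 FPKM in PW_Res. The lowest and the highest of these 6 libraries were both weaned, and the groups overlapped. The weaning effect was 0.16 (95% interval -0.64 to 0.96, unadjusted P = 0.653, limma), and 0.33 without W_Res 2 and W_Res 3. None of the 7 genes had an unadjusted P under 0.05 in this comparison, against 13.3% of the 13013 genes tested, and none had groups that did not overlap, against 21.8% of all genes. An adjusted p under 0.05 was found for 0.00768% of all genes.

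The difference of the weaning effect between the diets was tested directly. For TET2 it was 1.09 (95% interval 0.16 to 2.02, unadjusted P = 0.0255, adjusted p = 0.307, limma), and TET2 was the only 1 of the 7 genes with an unadjusted P under 0.05, against 13.7% of the 12886 genes tested and 0% with an adjusted p under 0.05. The unadjusted P was above 0.05 without W_Con 3, PW_Con 3, W_Res 1 or PW_Res 1, with values from 0.79 to 1.35 over all libraries left out in turn. Without both W_Res 2 and W_Res 3 the difference was 1.26, with W_Res 1 alone for its group. With a pseudocount of 0.1 it was 1.87.

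On the day of weaning, TET2 was also lower in W_Res than in W_Con, a comparison that shares the W_Con libraries with the weaning effect in control litters. All 3 W_Res libraries were below all 3 W_Con libraries. The log2 fold change was -0.89 (SE 0.29, unadjusted P = 0.0168, adjusted p = 0.344, limma), and -1.57 with a pseudocount of 0.1. Without W_Con 1, W_Con 3 or W_Res 1 the unadjusted P was above 0.05, with values from -1.09 to -0.72. W_Res 1 alone differed from the 3 W_Con libraries by -1.06. TET2 was 1 of 7 genes with an unadjusted P under 0.05 and 1 of 7 without overlap between W_Res and W_Con, against 13.3% and 21.0% of the 13186 genes tested, and 0% of these had an adjusted p under 0.05. After weaning, TET2 differed by 0.20 between PW_Res and PW_Con (95% interval -0.51 to 0.91). This value depended on the model, and a Ballgown-type linear model gave 1.07 (unadjusted P = 0.0254, adjusted p = 0.594, by that model).

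**Figure D3:**
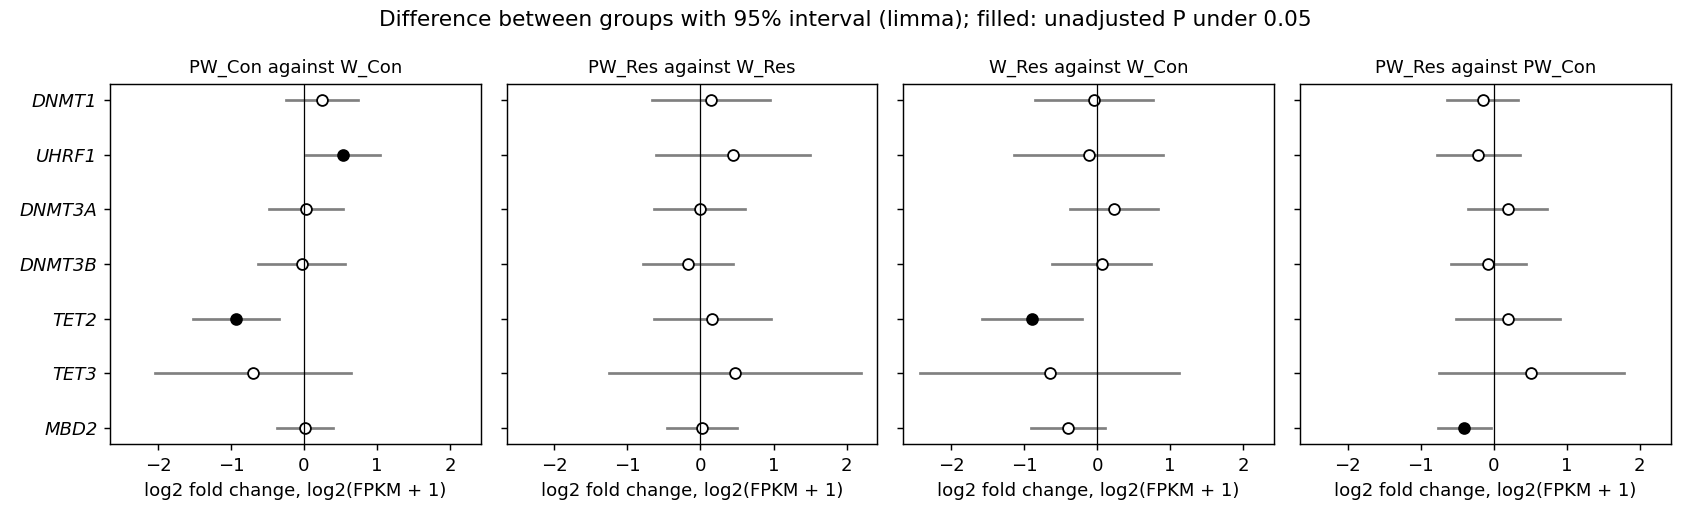
Log2 fold change on the log2(FPKM + 1) scale (horizontal axis) of the 7 genes in the 4 comparisons between groups; points are limma estimates, lines are 95% intervals, and filled points have an unadjusted P under 0.05. The filled points are UHRF1 (0.54) and TET2 (-0.93) after weaning in control litters, TET2 at weaning (-0.89) and MBD2 after weaning (-0.40) with maternal resveratrol.

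Villus markers are given beside TET2. Of 7 villus enterocyte markers with a row, 5 were lower after weaning in control litters, where 48.2% of all genes were higher, and 3 of these had an unadjusted P under 0.05, against 17.7% of all genes. At weaning 6 of 7 were lower in W_Res than in W_Con, where 57.9% of all genes were higher, 2 of them at an unadjusted P under 0.05, against 13.3% of all genes, and 4 of 7 were lower in W_Res 1 alone. Their summed level was 4184 to 8713 FPKM in W_Con, 2766 to 6272 FPKM in PW_Con, 2662 to 5084 FPKM in W_Res and 2225 to 4780 FPKM in PW_Res, so that the groups overlapped, and the rows of ALPI and LCT were missing. Over the 12 libraries TET2 had r = 0.73 with the mean log2 level of the villus list and r = -0.69 with that of the crypt and stem cell list. In resveratrol litters, W_Res 3 and PW_Res 1, the libraries with the most distal marker RNA of their groups, had the highest TET2 and the lowest UHRF1 of their groups. The same held for PW_Con 1 in its group, at 9921 FPKM of distal markers. W_Con went the other way. There W_Con 3 had the least distal marker RNA, at 61.8 FPKM, with the highest TET2 and the lowest UHRF1. Over the 12 libraries the distal list had r = 0.20 with TET2 and r = -0.10 with UHRF1. The part of these cell types and of the place along the gut in the levels of TET2 and UHRF1 was not tested. The genes most alike to TET2 were CU459197.3 (r = 0.93), the ataxin gene ATXN7 and the histone acetyltransferase gene KAT6A (r = 0.92 each).

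TET3 gave the widest intervals. It was at 11.4, 4.40 and 12.3 FPKM in W_Con and at 8.54, 1.53 and 7.63 FPKM in PW_Con. In resveratrol litters it was at 10.4, 0.689 and 11.0 FPKM in W_Res and at 12.3, 5.50 and 6.04 FPKM in PW_Res. Each group held 1 library with a level clearly apart from the other two, low in W_Con, PW_Con and W_Res and high in PW_Res. The log2 fold change with weaning was -0.70 (95% interval -2.04 to 0.65) in control and 0.47 (-1.26 to 2.19) in resveratrol litters. The value in control litters was -0.08 without PW_Con 2 and -1.11 without W_Con 2. That in resveratrol litters became -0.46 without W_Res 2. The difference between the diets was 1.17 with an SE of 1.05. This difference was 0.55 without PW_Con 2, 1.65 without W_Res 3, and 0.27 without both W_Res 2 and W_Res 3. TET3 had r = 0.52 with TET2, and the genes most alike to it were ZNF652 and CDCP1 (r = 0.91 each) and DDX6 (r = 0.88).

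Of 18 listed TET partners and genes of base excision of oxidised cytosine, 14 had a row. In the average over both diets 5 were higher and 9 lower after weaning, where 36.6% of all genes were higher. An unadjusted P under 0.05 was found for 1 in each direction, 2 of 14 against 19.0% of all genes. GADD45G, a stress-induced protein linked to active demethylation, was higher. It was at 1.34, 1.60 and 1.01 FPKM in W_Con and at 3.41, 3.54 and 5.27 FPKM in PW_Con, but at 2.17, 2.81 and 2.54 FPKM in W_Res and at 2.37, 2.14 and 2.04 FPKM in PW_Res. The weaning effect on GADD45G was 1.12 in control litters (unadjusted P = 0.00122, adjusted p = 0.117, limma) and -0.14 in resveratrol litters (unadjusted P = 0.531). The difference of both was -1.26 (unadjusted P = 0.000689, adjusted p = 0.251, limma), and -1.11 without W_Res 2 and W_Res 3.

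OGT, the O-GlcNAc transferase that binds TET2 and TET3, was the gene of this list that was lower. It was at 16.0 ± 2.82 FPKM in W_Con, 12.4 ± 2.49 FPKM in PW_Con, 10.4 ± 2.62 FPKM in W_Res and 6.49 ± 2.02 FPKM in PW_Res (SD, n = 3). The average weaning effect on OGT was -0.48 (unadjusted P = 0.0218, adjusted p = 0.208, limma), and -0.27 without W_Res 2 and W_Res 3. Resveratrol against control, averaged over both ages, gave -0.73 (unadjusted P = 0.00174, adjusted p = 0.188, limma), and -0.94 without these libraries. In that comparison 7 genes of the list were higher and 7 lower, where 53.9% of all genes were higher. In each direction 1 had an unadjusted P under 0.05, against 12.3% of all genes. The higher 1 was XRCC1 with 0.38 (unadjusted P = 0.0426, adjusted p = 0.392, limma). POLB, the polymerase of base excision repair, had an average weaning effect of 0.29 (unadjusted P = 0.0589).

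MBD2, the reader of the set, had a weaning effect near 0 and was lower with maternal resveratrol. It was at 36.3, 31.6 and 27.0 FPKM in W_Con and at 30.5, 31.7 and 33.2 FPKM in PW_Con. In resveratrol litters it was at 27.4, 19.8 and 24.0 FPKM in W_Res and at 22.3, 23.1 and 26.3 FPKM in PW_Res. The levels of the 6 resveratrol libraries lay below those of the 6 control libraries, except that W_Res 1 was just above W_Con 3. The weaning effect averaged over both diets was 0.02 with a 95% interval from -0.25 to 0.28, which is the narrowest interval of the 7 genes.

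After weaning, MBD2 was lower in PW_Res than in PW_Con without overlap, with a log2 fold change of -0.40 (SE 0.16, unadjusted P = 0.0358, adjusted p = 0.454, limma). It was 1 of 7 genes with an unadjusted P under 0.05 and 1 of 7 without overlap, against 10.2% and 17.3% of the 12380 genes tested, and 0.00808% of these had an adjusted p under 0.05. Without PW_Con 1, PW_Con 2, PW_Con 3, PW_Res 1 or PW_Res 2 the unadjusted P was above 0.05, with values from -0.47 to -0.35. On the day of weaning MBD2 differed by the same -0.40, with overlap and a larger SE of 0.22 (unadjusted P = 0.103, limma), and by -0.19 without W_Res 2 and W_Res 3.

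Averaged over both ages, a comparison added after the values were seen, MBD2 differed by -0.40 between resveratrol and control litters (SE 0.12, unadjusted P = 0.00701, adjusted p = 0.265, limma). An exact permutation test of the libraries within each age gave p = 0.01 for MBD2, where 0.005 was the smallest p possible. For the other members that test gave p from 0.155 to 0.98. Resveratrol was given to the sows, and by the study's methods both ages drew on the same litters. Both tests took the libraries as independent, so that littermates may count as separate replicates and the P-values may be too small. MBD2 was 1 of 7 genes with an unadjusted P under 0.05, against 12.3% of the 12886 genes tested, and 0.140% of all genes had an adjusted p under 0.05. Leaving out each library in turn gave -0.45 to -0.34, and the unadjusted P remained under 0.05 each time. Without W_Res 2 and W_Res 3 together the value was -0.29, with W_Res 1 alone for its group.

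For the maintenance genes, each 95% interval with resveratrol spanned both signs and also included the -0.40 of MBD2. No test between genes was run. With resveratrol, the log2 fold change of DNMT1 was -0.05 (95% interval -0.85 to 0.76) at weaning and -0.15 (-0.63 to 0.34) after weaning. That of UHRF1 was -0.11 (-1.14 to 0.91) at weaning and -0.21 (-0.78 to 0.37) after weaning. Both values at weaning turned positive without W_Res 3, to 0.30 for DNMT1 and 0.40 for UHRF1. TET3 had -0.65 (-2.42 to 1.12) at weaning and 0.52 (-0.75 to 1.78) after weaning, and DNMT3B had 0.06 and -0.07. Without W_Res 2 and W_Res 3, the values at weaning were 0.24 for TET3 and 0.36 for DNMT3B. Without PW_Con 2, those after weaning were -0.10 for TET3 and 0.07 for DNMT3B.

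Lymphocyte markers are given beside MBD2. Of 12 markers, 11 were lower with resveratrol in the average over both ages, where 53.9% of all genes were higher, and 11 were also lower without W_Res 2 and W_Res 3. An unadjusted P under 0.05 was found for 6 of them, against 12.3% of all genes, with a median log2 fold change of -0.57 beside 0.03 over all genes. The B cell marker CD79A, the exception, had 0.17 (unadjusted P = 0.209) at a mean of 177 FPKM, and was named after its value was seen. Their summed level was 277 to 324 FPKM in W_Con, 249 to 419 FPKM in PW_Con, 238 to 306 FPKM in W_Res and 216 to 278 FPKM in PW_Res. Over the 12 libraries MBD2 had r = 0.38 with the mean log2 level of this list, and r = -0.33 after each group's mean was removed. The part of lymphocytes in the level of MBD2 was not tested.

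The other methyl-CpG readers gave no common direction with resveratrol. Of 7 listed, 6 had a row, and 3 were higher and 3 lower with resveratrol in the average over both ages, where 53.9% of all genes were higher. None had an unadjusted P under 0.05, against 12.3% of all genes. With weaning, MBD3, a paralogue of MBD2 that is also a NuRD subunit, was at 10.4 ± 0.926 FPKM in W_Con and 15.5 ± 1.42 FPKM in PW_Con, and at 14.2 ± 3.91 FPKM in W_Res and 15.9 ± 1.43 FPKM in PW_Res. Its average weaning effect was 0.36 (unadjusted P = 0.0282, adjusted p = 0.223, limma), and 0.21 without W_Res 2 and W_Res 3. ZBTB38, a zinc finger protein that binds methylated DNA, had -0.73 (unadjusted P = 0.0978), and -1.06 without W_Res 2 and W_Res 3. By diet ZBTB38 had -1.58 in control litters (unadjusted P = 0.0272) and 0.11 in resveratrol litters (unadjusted P = 0.821), and the difference of 1.69 had an unadjusted P of 0.0611. ZBTB38 was low and uneven, at 0.329 to 6.10 FPKM in W_Con and 0.0927 to 0.354 FPKM in PW_Con, with overlap. In resveratrol litters it was at 0.246 to 1.84 FPKM in W_Res and 0.118 to 2.44 FPKM in PW_Res.

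Of the 11 other NuRD subunits listed, 10 had a row. Averaged over both diets 2 were higher and 8 lower after weaning, where 36.6% of all genes were higher, with the same counts without W_Res 2 and W_Res 3. An unadjusted P under 0.05 was found for 2 of 10, against 19.0% of all genes. These were CHD3, an ATP-dependent remodeller, with -0.42 (unadjusted P = 0.0257, adjusted p = 0.217, limma) and RBBP7, a histone-binding subunit, with -0.41 (unadjusted P = 0.0284, adjusted p = 0.223, limma). They had -0.31 and -0.52 without W_Res 2 and W_Res 3. MTA3 had -0.25 on average (unadjusted P = 0.0639), with -0.62 in control and 0.13 in resveratrol litters. With resveratrol 3 subunits were higher and 7 lower in the average over both ages, where 53.9% of all genes were higher. HDAC1, a histone deacetylase of the complex, had -0.36 (unadjusted P = 0.0281, adjusted p = 0.369, limma), 1 of 10 subunits against 12.3% of all genes. Without W_Res 2 and W_Res 3, 6 subunits were higher and 4 lower, and HDAC1 had -0.24. The genes most alike to MBD2 were the replication licensing gene CDC6 and the phosphatase gene PPP2CA (r = 0.91 each) and EEA1 (r = 0.90).

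The enzymes that supply the methyl donor were measured for 12 of 16 genes, of which 10 were tested. In the average over both diets 4 were higher and 6 lower after weaning, where 36.6% of all genes were higher. An unadjusted P under 0.05 was found for 2 of 10, against 19.0% of all genes. Methionine synthase, MTR, had -0.52 (unadjusted P = 0.0249) and its reductase MTRR had -0.32 (unadjusted P = 0.0254), with adjusted p = 0.215 and 0.217 by limma. MTR was low, at 0.317 to 1.83 FPKM in W_Con and 0.457 to 0.823 FPKM in PW_Con, with overlap. In resveratrol litters MTR was at 0.955 to 1.84 FPKM in W_Res and 0.504 to 0.772 FPKM in PW_Res, without overlap. MTRR was at 20.6 ± 1.53 FPKM in W_Con and 14.3 ± 1.27 FPKM in PW_Con, with a log2 fold change of -0.50 (unadjusted P = 0.0130). In resveratrol litters it was at 17.3 ± 0.651 FPKM in W_Res and 15.9 ± 3.79 FPKM in PW_Res, with overlap and a log2 fold change of -0.14 (unadjusted P = 0.540). MAT1A, a synthase of the donor S-adenosylmethionine, had 0.75 (unadjusted P = 0.0776). Without W_Res 2 and W_Res 3 the values were -0.34 for both MTR and MTRR and 0.08 for MAT1A.

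Averaged over both diets, 0 of the 7 genes had an unadjusted P under 0.05 by limma for the weaning effect, against 19.0% of the 12886 genes tested, 0.0776% of which had an adjusted p under 0.05. The exact permutation test also gave no p under 0.05, with p = 0.125 for UHRF1 and p = 0.19 for TET2 as the lowest. The median log2 fold change of the 7 genes was 0.01, beside -0.10 over all genes.

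**Figure D4:**
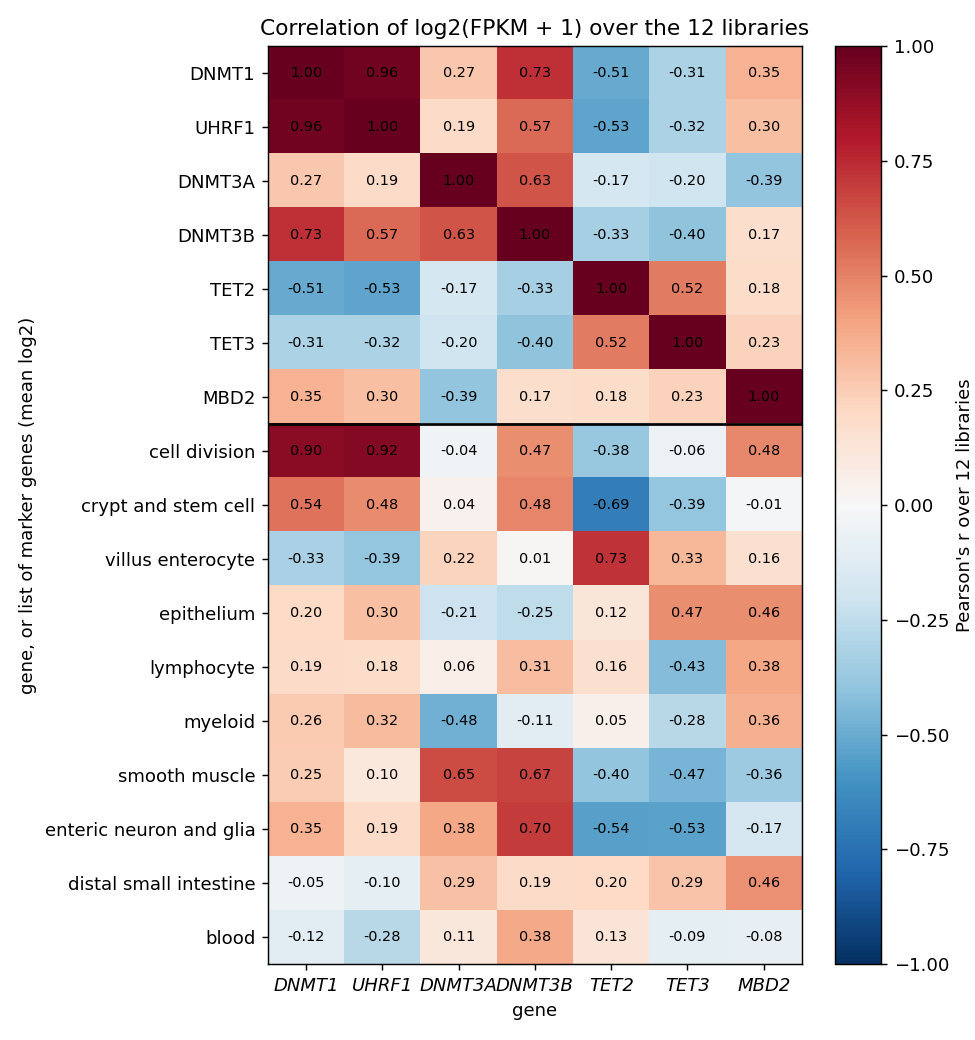
Pearson's r of log2(FPKM + 1) over the 12 libraries between the 7 genes (upper block) and between each gene and the mean log2 level of 10 marker lists (lower block); red is positive and blue negative. DNMT1 and UHRF1 are high together and with the cell division list (r = 0.90 and r = 0.92), and TET2 is positive with the villus list (r = 0.73) and negative with UHRF1 (r = -0.53).

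Over all libraries TET2 had r = -0.51 with DNMT1, r = -0.53 with UHRF1, r = -0.33 with DNMT3B and r = -0.17 with DNMT3A. TET3 had r = -0.31, r = -0.32, r = -0.40 and r = -0.20 with the same genes. After each group's mean was removed, TET2 had r = -0.67 with DNMT1, r = -0.68 with UHRF1, r = -0.55 with DNMT3B and r = 0.04 with DNMT3A. These values describe 12 libraries that differ in tissue makeup, and no test was made.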

How the data were processed

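Poly(A) RNA of 12 jejunum samples was sequenced as paired-end reads, 3 libraries per group. The authors deposited 1 table of FPKM per assembled locus, made with StringTie and Ballgown. The methods name TopHat for alignment, and the submitters' processing notes list HISAT2 2.0, Bowtie 0.12.2, StringTie 1.3.0 and the builds Sscrofa10.2 and mm8, so that the aligner is uncertain. FPKM hold no counts, and no further scaling of the libraries is described.

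Loci were summed by gene name, and the 17650 loci without a name were left out. Listed genes without a symbol were matched by Ensembl identifier. limma 3.58.1 (R 4.3.3, eBayes with a trend) was run on log2(FPKM + 1) for genes whose mean FPKM over the fitted libraries reached 0.5, as pairs of groups or over all 12 libraries for averages and differences. Members were also tested by exact two-sided permutation within strata (400 arrangements). On simulated data for the control comparison, 198 of 200 changed genes (log2 change of 2) among 12611 were recovered. The changed genes were drawn from those with a mean log2(FPKM + 1) above 2, which leaves out TET2, DNMT3A and DNMT3B. The change of 2 was larger than that of any member in this comparison. Recovery of smaller changes and of low genes was not tested.

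The 8 genes and all lists were chosen with earlier results of these data known. Named were the 8 genes, up to 3 genes per list with the smallest P in the averaged weaning effect, and the 3 symbols with the highest r (mean of at least 1 FPKM). DNMT3L, HDAC1 and further values of listed genes were named after their values were seen. The alternatives were a pseudocount of 0.1, other filters, other scalings, other models, a replicate block and leaving out libraries. Leaving out W_Res 2 and W_Res 3 together was chosen after the data were seen, and W_Res then holds 1 library. No member sequence was at hand, and none is printed. The result of 1 gene that the naming rule selected is not reported here.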

Additional observations from a re-analysis of the deposited data

Results flagged for a closer look

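The weaning effect on TET2 was set apart by the test of its difference between the maternal diets at an unadjusted P under 0.05, which 1 of the 7 genes and 13.7% of all genes passed, and not after adjustment. The effect in resveratrol litters was higher by 1.09 on the log2(FPKM + 1) scale than that in control litters (unadjusted P = 0.0255, adjusted p = 0.307, limma), with an effect of -0.93 in control and 0.16 in resveratrol litters. The 3 weaned control libraries were below the 3 control libraries of the day of weaning, whereas the resveratrol groups overlapped. The unadjusted P was under 0.05 in 16 of 21 alternatives, with a highest P of 0.138 (Ballgown-type model), and above it without W_Con 3, PW_Con 3, W_Res 1 or PW_Res 1. Groups of 3 are too small for a test of single libraries that stand apart.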

How the results depend on the processing

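Of 903 values of single genes under an alternative, 857 kept their side of the unadjusted P of 0.05 without a counted change of sign. A further 25 lost an unadjusted P under 0.05, 8 gained it and 13 changed sign. A change of sign was counted where the value was more than 1 SE from 0 in at least one of both settings. The 857 therefore include values near 0 that changed direction. The cause of these changes was not tested unless named.

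The number of the 7 genes with an unadjusted P under 0.05 was 2 for the weaning effect in control litters and 1 with a minimum of 5 FPKM (which leaves TET2 out), quantile normalization, the Ballgown-type model or all 12 libraries in the fit, and it was 1 to 2 over the libraries left out in turn. For resveratrol at weaning it was 1, then 0 with a minimum of 5 FPKM or the Ballgown-type model, 2 with median-of-ratios rescaling or all 12 libraries, and 0 to 1 over libraries left out. For resveratrol after weaning it was 1, then 0 with median-of-ratios rescaling, 2 with the Ballgown-type model (TET2, 1.07, and MBD2, -0.51), and 0 to 1 over libraries left out. For the difference between diets it was 1, then 0 with a minimum of 5 FPKM or the Ballgown-type model, and 0 to 1 over libraries left out. For the averaged weaning effect it was 0, then 1 with median-of-ratios rescaling (UHRF1, 0.60) and 0 to 1 over libraries left out, and the exact permutation test, rerun under the same rescaling and with each library left out, gave the same counts. For resveratrol averaged over both ages it was 1, then 0 without both W_Res 2 and W_Res 3, where W_Res 1 is assumed to vary like the other groups, and 1 to 2 over libraries left out.

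In resveratrol litters the weaning effect changed sign to 0.30 (quantile) and 0.46 (Ballgown-type) for DNMT3A and to -0.37 (Ballgown-type) for MBD2, and that of TET3 with a library left out ranged from -0.46 (without W_Res 2) to 0.95. The Ballgown-type model gave -1.68 for TET3, with an SE of 1.97. Without both W_Res 2 and W_Res 3 the weaning effect in these litters was -0.45 for DNMT1 and -0.36 for UHRF1. Resveratrol at weaning with a library left out ranged from -0.34 to 0.30 for DNMT1 and from -0.52 to 0.40 for UHRF1, the upper ends without W_Res 3, and was 0.55 and 0.69 without both libraries. Averaged over both ages, resveratrol became 0.20 for DNMT1 and 0.24 for UHRF1 without both libraries, and 0.40 for TET3 without W_Res 2. Median-of-ratios rescaling moved the median of all genes in resveratrol litters from -0.16 to 0.01.

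The replicate numbers did not show a pairing of the libraries. Same-numbered libraries had correlations of their deviations from -0.26 to 0.11, and other-numbered libraries from -0.23 to 0.36. These are deviations from means of 3 libraries that also differ in tissue makeup, so that they cannot exclude shared litters. With a replicate block the count in control litters stayed at 2, with TET3 (-0.70, unadjusted P = 0.0223) in place of UHRF1 (unadjusted P = 0.0662), and that of resveratrol after weaning fell to 0. Without counts, no limit of detection can be given for the low genes TET1, TET2 and DNMT3A.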
